A study of Mus musculus with 10 samples.

Results

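The enteroendocrine transcription factors are 9 genes that build the hormone-producing cells of the gut, and they were followed here through 5 sorted populations of mouse small intestinal crypt cells. The members were the rows of the count tables whose name was Neurog3, Neurod1, Pax4, Pax6, Isl1, Nkx2-2, Insm1, Rfx6 or Prox1, which made 9 of 35006 gene rows, and all 9 passed the filter on low counts. Poly-A RNA from 10000 sorted cells per library was sequenced in 10 libraries, 2 for each population. All populations were live EpCAM+ epithelial cells of EF1a-OSCAR mice on a C57BL6/J background, whose age was not given in the sources used here.

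All groups carried the same reporter, a knock-in at the Rosa26 locus expressed from the EF1a promoter after Vasa-Cre, active in germ cells, had removed a stop cassette. OSCAR is the ratio of the fluorescence of VeN90, a Venus variant that darkens when the kinase CDK9 phosphorylates it, to that of mCherry from the same construct. The gates were OSCARlow EF1alow for P1, OSCARhigh EF1alow for P2, OSCARlow EF1ahigh for P3, OSCARmed EF1alow for P4 and OSCARmed EF1ahigh for P5, where EF1a stands for the general expression of the reporter. No population carried a different genotype, and whether the 2 libraries of a population came from different mice was not stated in the labels, so that p-values measure the spread between these libraries. The labels and the study's account do not attach the names P2 and P3 to the same expression profiles, and the doubt concerns which of these names belongs to the libraries rich in secretory cell genes. Which gate they came from could not be settled here, so that every library is called by its label, and the gate given for P2 and P3 holds only as far as the labels do.

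Total counts on genes ranged from 3857612 to 6485823 per library, and a count of 0 allows up to 3 counts, which was 4.63e-05% to 7.78e-05% of a library (counting error only). The P3 libraries stood apart before any comparison, with 59.2% and 36.1% of their counts on mitochondrially encoded genes against 1.04% to 5.19% in the other 8 libraries. Defensin genes and Lyz1, products of Paneth cells, took 33.3% and 25.1% of the counts of the P2 libraries. The epithelial gene Epcam was present in every library, at 3021 to 8381 normalized counts (counts divided by a DESeq2 size factor for the depth of the library).

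Enteroendocrine cells arise from crypt progenitors that leave the absorptive fate when Notch signalling falls and the factor Atoh1 is made. Neurog3 is then expressed briefly in the endocrine progenitor and is switched off as cells mature, while Neurod1, Insm1, Nkx2-2, Pax4, Pax6, Isl1 and Rfx6 act downstream of it and choose and keep the hormone programme. Prox1 is a homeobox factor of enteroendocrine cells that tuft cells of the gut also express.

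Neurog3 and Neurod1 belong to the basic helix-loop-helix family, whose dimers bind the E-box, CANNTG. The 250 bases before the annotated start of Neurog3 and of 3 downstream factors are shown, because Neurog3 had at most 8.66 normalized counts in P2, where these late factors were highest, with every CANNTG in capitals. The sequences are those of RefSeq on GRCm38.p6, written 5′ to 3′ on the strand of the gene. Neurog3 lies at chr10:62132840-62133089 on the plus strand, Neurod1 at chr2:79456637-79456886 on the minus strand, Isl1 at chr13:116309689-116309938 on the minus strand and Nkx2-2 at chr2:147186403-147186652 on the minus strand.
Neurog3: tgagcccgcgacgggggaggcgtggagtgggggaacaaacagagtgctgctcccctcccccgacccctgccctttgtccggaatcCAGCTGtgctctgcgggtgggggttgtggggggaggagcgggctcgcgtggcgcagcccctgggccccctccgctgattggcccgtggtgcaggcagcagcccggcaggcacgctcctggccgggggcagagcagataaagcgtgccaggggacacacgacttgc
Neurod1: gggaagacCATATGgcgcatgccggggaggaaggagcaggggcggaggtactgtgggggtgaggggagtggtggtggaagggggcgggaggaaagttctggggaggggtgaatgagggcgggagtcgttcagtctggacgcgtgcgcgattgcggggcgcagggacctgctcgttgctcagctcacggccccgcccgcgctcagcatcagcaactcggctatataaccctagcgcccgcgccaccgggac
Isl1: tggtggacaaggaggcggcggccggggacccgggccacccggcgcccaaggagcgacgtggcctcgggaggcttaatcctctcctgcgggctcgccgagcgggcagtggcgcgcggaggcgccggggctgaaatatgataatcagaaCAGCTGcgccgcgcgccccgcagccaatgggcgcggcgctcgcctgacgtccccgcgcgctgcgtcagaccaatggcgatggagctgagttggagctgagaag
Nkx2-2: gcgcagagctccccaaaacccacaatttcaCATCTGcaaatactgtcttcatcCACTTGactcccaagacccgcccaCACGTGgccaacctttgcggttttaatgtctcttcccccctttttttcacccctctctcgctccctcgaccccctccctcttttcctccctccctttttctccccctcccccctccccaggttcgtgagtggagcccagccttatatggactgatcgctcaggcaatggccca

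The E-box letters of Neurog3 and Isl1 were both CAGCTG, 165 and 103 bases before the start. Nkx2-2 held 3 matches, at 220, 197 and 173 bases before the start, and the single match of Neurod1 lay 242 bases before it. Promoters were found for 7 of the 9 members, with 9 entries in all, but not for Pax4 and Insm1. Over the 300 bases around the start, searched on both strands, CANNTG occurred in 7 of the 9 entries, beside 72.3% of 32851 promoters of the same length. CAGCTG and CAGATG, which are both forms of CANNTG, each occurred in 2 of the 9 entries, beside 16.3% and 17.2% of all promoters. CCAAT occurred in 4 (37.4% of all promoters), TATAAA in 1 (13.6%) and the REST half-site letters TTCAGCACC in 0 (0.371%). The shares of the members were thus set beside the shares of all promoters, and no test was made of them.

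Neurog3, the progenitor factor, was highest in the P4 libraries and nearly missing from the P2 libraries. Its raw counts were 120 and 120 in P4, 32 and 36 in P5, 4 and 3 in P1, 0 and 7 in P2 and 0 and 11 in P3. As normalized counts these were 83.3 and 66.2 in P4, 20.4 and 21.2 in P5, 3.77 and 2.85 in P1, 0 and 8.66 in P2 and 0 and 13.5 in P3. Both P4 libraries lay above all the others, both P5 libraries came next, and P1, P2 and P3 overlapped. The means were 74.8 ± 12.2 in P4 and 20.8 ± 0.548 in P5 (SD, n = 2). The 0 in P2 replicate 1 stood for at most 6.27e-05% of 4781844 counts.

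The log2 fold change of Neurog3 between P4 and P1 was 4.45 (SE 1.007), past the threshold of 0.01 when p-values of edgeR's quasi-likelihood test were adjusted over 13707 genes by the Benjamini-Hochberg method (adjusted p = 0.00764). Between P2 and P4 the log2 fold change was -3.92 (SE 1.004), and its adjusted p of 0.0182 in the same edgeR test missed the threshold. In DESeq2 the same difference had an adjusted p of 0.000887. Against P5 the log2 fold change of P2 was -2.10 (SE 1.014, edgeR adjusted p = 0.151), and between P5 and P4 it was -1.83 (SE 0.82, edgeR adjusted p = 1). Neurog3 occupies 10:61595838-61597511 on the plus strand of NCBIM37, with 2 exons, and 17.7% of its exon bases overlap 2010107G23Rik on the other strand, which the unstranded counting could not tell apart. The mean of 2010107G23Rik was highest in P1, at 120 normalized counts, and 83.3 in P4.

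**Figure D1:**
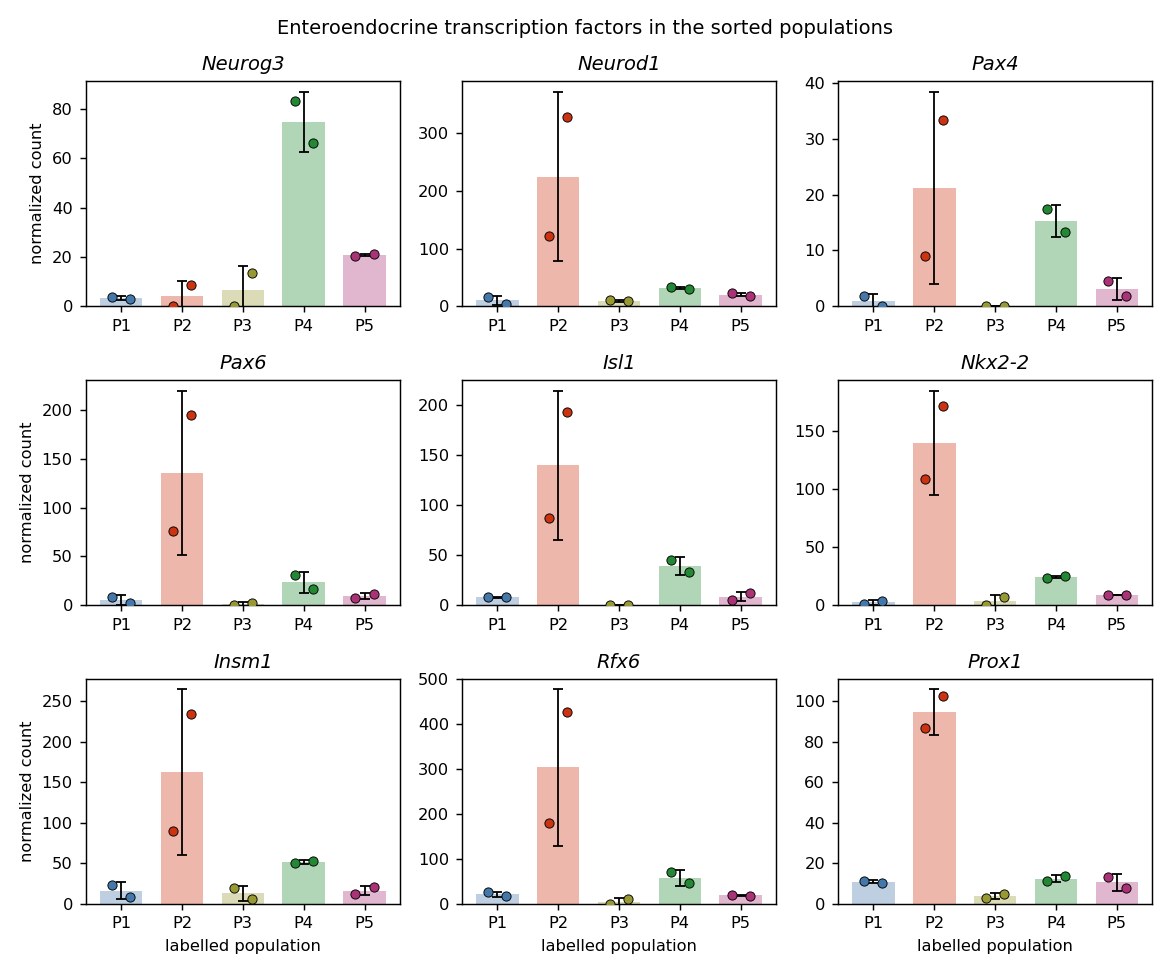
Normalized counts (vertical axes, each from 0) of the 9 factors in the 5 labelled populations. Points are the 2 libraries, bars their mean and error bars the SD. Neurog3 stands highest in P4, while 7 of the other factors stand highest in both P2 libraries.

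Neurod1, a helix-loop-helix factor that acts directly after Neurog3 and holds cells out of the cycle, was highest in P2. Its normalized counts were 121 and 329 in P2, 33.3 and 30.3 in P4, 22.4 and 18.3 in P5, 16.0 and 4.75 in P1 and 11.03 and 8.58 in P3. Both P2 libraries lay above the other 8, and P4 above P5, while P1 and P3 overlapped. The gene lies at 2:79292678-79296908 on the minus strand of NCBIM37. Of its exon bases 7.37% are shared with Cerkl on the same strand, which had at most 28 counts in a library. The normalized counts of Cerkl were 16.3 and 34.6 in P2 and 0 to 3.77 in the other 8 libraries, and its part in the Neurod1 counts was not tested.

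Insm1, a zinc-finger repressor encoded in 1 exon at 2:146047657-146050752 and needed for endocrine differentiation, was at 90.4 and 235 normalized counts in P2. It followed at 50 and 52.9 in P4, 23.6 and 8.55 in P1, 12.1 and 20.6 in P5 and 19.3 and 6.13 in P3. P2 and P4 each stood clear of the lower 3 populations, which overlapped each other. Nkx2-2, a homeobox factor of enteroendocrine and islet cells at 2:147003282-147019979, was at 108 and 172 in P2, 23.6 and 24.8 in P4, 8.30 and 8.25 in P5, 0.944 and 3.80 in P1 and 0 and 7.35 in P3. Its order of P2, P4 and P5 had no overlap, and P1 and P3 could not be ordered.

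Pax4 was the factor with the fewest reads. This paired-box repressor, at 6:28392334-28399353, is known to steer progenitors towards serotonin and somatostatin cells. It had 5 and 27 counts in P2, 25 and 24 in P4, 7 and 3 in P5, 2 and 0 in P1 and 0 and 0 in P3. As normalized counts, P2 was at 9.04 and 33.4 and P4 at 17.4 and 13.2, so that the P4 values lay between those of the P2 libraries. Pax6, its activating relative at 2:105509053-105543317, was at 75.9 and 195 in P2, 31.3 and 16.0 in P4, 7.03 and 11.8 in P5, 8.49 and 1.90 in P1 and 0 and 2.45 in P3. Both P2 libraries were above all the others. Elp4, on the other strand, overlaps 27.9% of the exon bases of Pax6, and its means of 18.5 to 45.1 normalized counts were highest in P5 and not in P2.

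Isl1, a LIM-homeobox factor at 13:117088478-117099896 that many hormone cells keep, was at 86.8 and 193 normalized counts in P2 and at 45.1 and 33.1 in P4. It was at 7.55 and 7.60 in P1, at 5.11 and 11.8 in P5 and at 0 counts in both P3 libraries. Rfx6, a winged-helix factor of the maturing endocrine cell at 10:51397562-51450235, was at 181 and 427 in P2, 70.1 and 45.2 in P4, 25.5 and 17.1 in P1, 19.8 and 18.3 in P5 and 0 and 9.80 in P3. For both genes P2 was clear of P4, P4 was clear of the rest, and P1 overlapped P5.

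Prox1, at 1:191945660-191994559, differed from the other late factors in that P4 did not stand out. It was at 86.8 and 103 normalized counts in P2, 11.1 and 13.8 in P4, 11.3 and 10.4 in P1, 13.4 and 7.66 in P5 and 2.76 and 4.90 in P3. Both P2 libraries were far above the rest, P1, P4 and P5 overlapped, and P3 was below them. Its log2 fold change between P4 and P1 was 0.20 (SE 0.50) and missed the threshold, which does not show equal levels.

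Compared with the average of the other 4 populations, 8 of the 9 factors were higher in P2 by edgeR's quasi-likelihood test at an adjusted p under 0.01, beside 16.3% of all 13707 genes called higher (27% called in either direction). The fold changes on the log2 scale were 5.08 (SE 0.49) for Isl1, 4.31 (0.52) for Pax6, 4.29 (0.43) for Nkx2-2 and 3.92 (0.39) for Rfx6. They were 3.80 (SE 0.89) for Pax4, 3.79 (0.40) for Neurod1, 3.38 (0.33) for Prox1 and 3.01 (0.45) for Insm1. Adjusted p-values in this edgeR test ran from 7.57e-05 for Prox1 to 0.00958 for Pax4. Neurog3 was not called, at -1.58 (SE 0.93, edgeR adjusted p = 0.204).

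Since Isl1 and Pax4 had no read in P3, their fitted values depend on the prior count. Without both P3 libraries Isl1 was at 3.35 (edgeR adjusted p = 0.000291) and Pax4 at 2.55 (adjusted p = 0.0194), so that 7 factors were called, with a median of 3.35 over the 9. Measured against the floor of 3 counts per library, the P2 mean of Isl1 was at least 23.4-fold higher than P3 and that of Pax4 at least 3.55-fold higher. These bounds, and the others given below, use the mean of 2 libraries and leave out their spread, which for Pax4 ran from 9.04 to 33.4 in P2. P2 replicate 2 carried more of each factor than P2 replicate 1. Without replicate 2, 5 factors (Isl1, Neurod1, Nkx2-2, Prox1 and Rfx6) stayed past the threshold, and without replicate 1, 7 did.

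Taken by their ranges, with no test, both P2 libraries were above all 8 other libraries for 7 of the 9 factors (all but Neurog3 and Pax4), beside 21.2% of all genes tested. In bulk RNA of this kind, more cells of a type and more RNA per cell cannot be told apart.

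Population by population, 7 factors (all but Neurog3 and Pax4) were called higher in P2 than in P1, in P3 and in P5, where 13.9%, 10.4% and 8.75% of all genes were called higher by edgeR. The median log2 fold change of the 9 was 4.18 against P1, 4.49 against P3 with Pax4 and Isl1 at their lower bounds, and 3.45 against P5. Over all genes the medians were 0.01, -0.01 and 0.03. The 4 comparisons share the P2 libraries. Leaving out 1 library at a time, the lowest log2 fold change among the 7 called factors was that of Insm1. It was 2.41 against P1, 2.81 against P3 and 2.34 against P5. Against P5 every factor lost its call without either P5 library and also without P2 replicate 2. Against P1 and P3 some factors lost theirs when a library of a compared population was left out. Fewer of all genes were called in those fits too. With library totals as the scale, 2 were called against P5, beside 2983 genes called in either direction.

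**Figure D2:**
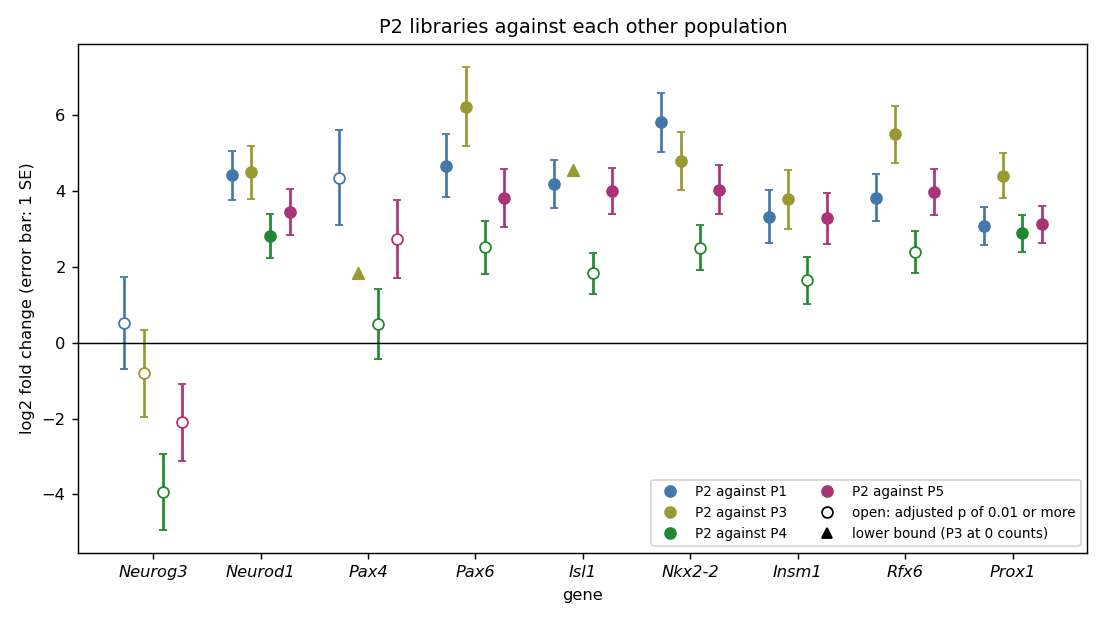
Log2 fold change of each factor between P2 and each other population in the edgeR fit (error bars, 1 SE). Filled points have an adjusted p under 0.01, and triangles are lower bounds where P3 had 0 counts. Neurod1 and Prox1 alone are filled against P4, and Neurog3 falls below 0 against P3, P4 and P5.

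By their levels of the late factors the P4 libraries came nearest to P2. Here 2 of the 9 factors, Neurod1 and Prox1, were called higher in P2, beside 8% of all genes. Neurod1 was at 2.82 (SE 0.58, edgeR adjusted p = 0.00682) and Prox1 at 2.89 (SE 0.48, adjusted p = 0.00284) on the log2 scale. The values of Pax6, Isl1, Nkx2-2, Insm1 and Rfx6, lay between 1.65 and 2.52 with adjusted p-values of 0.0122 to 0.0746, and Pax4 was at 0.49 (SE 0.92, edgeR adjusted p = 0.732). The median of the 9 was 2.39, beside 0.05 over all genes. The count rested on the setting, as did that of all genes. DESeq2 called 6 factors (5 higher, and Neurog3 lower), beside 3192 genes in either direction. A fit without both P3 libraries called 5 (4 higher, and Neurog3 lower), beside 2820 genes. Leaving out 1 library at a time, the log2 fold change ran from 1.814 to 3.353 for Neurod1 and from 2.675 to 3.049 for Prox1. Without a P2 or P4 library fewer factors and fewer of all genes were called. With library totals as the scale the median of all genes was -1.07 and 1 factor was called, Neurog3, as lower, beside 3159 genes.

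Among P1, P3, P4 and P5, 2 of 54 factor-by-pair tests were called, Neurog3 and Nkx2-2 in P4 over P1, beside 9.81% of all gene-by-pair tests. Nkx2-2 was 3.30 higher in P4 than in P1 on the log2 scale (SE 0.78, edgeR adjusted p = 0.00895). The other factors but Prox1 were between 1.43 (Rfx6) and 3.86 (Pax4) in this comparison and did not pass. Over all genes, 9.44% were called higher in P4 than in P1. Both P4 libraries lay above both P1 libraries for 8 of the 9 factors, beside 40.3% of all genes. Leaving out 1 library at a time, the log2 fold change between P4 and P1 ran from 4.295 to 4.672 for Neurog3. For Nkx2-2 it ran from 2.652 to 4.556. Calls depended on the library left out, for these factors and for all genes. DESeq2 called 3 factors in P4 over P1, beside 4528 genes called in either direction, and 2 in P4 over P3, beside 121. A fit with no filter on low counts called 8 and 5 factors there, beside 5026 and 539 genes.

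Both P4 libraries also lay above both P5 libraries for 8 of the 9 factors, all but Prox1, beside 16.3% of all genes. No factor was called by edgeR between P5 and P4, where 0% of all genes were, although 4 had an unadjusted p under 0.05. DESeq2, which gave Pax4 no adjusted p here, called 0 factors too, beside 30 genes. The median of the 9 was -1.58, beside 0.01 over all genes, with Pax4 at -2.25 and Isl1 at -2.17 (SE 0.59) the farthest down. Both P4 libraries were above both P3 libraries for all 9 factors, beside 24% of all genes. There edgeR called 0 factors and 0% of all genes, and all 9 had an unadjusted p under 0.05. DESeq2 called 2, Isl1 and Rfx6, beside 121 genes, and gave Pax4 no adjusted p. The median was 2.29 with Pax4 and Isl1 at their lower bounds, which were 2.56-fold and 6.55-fold.

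P5, P1 and P3 could be ordered only in part. Both P5 libraries lay above both P3 libraries for 8 of the 9 factors, all but Insm1, with no test. The share of all genes was 21.8%. P5 lay above P1 in this way for 3 factors (38.2% of all genes), and P1 above P3 for 3 (35.2%). edgeR called 0 factors between P5 and P1, where 19.8% of all genes were called, between P3 and P1 (15.6% of all genes) and between P5 and P3 (0%), and DESeq2 called 0 in each. In each of these pairs 1 factor had an unadjusted p under 0.05, Neurog3 in the first and Isl1 in the other two. The difference between EF1ahigh and EF1alow in the OSCARlow gates, minus that in the OSCARmed gates, was called by edgeR for 0 of the 9 factors and 0.817% of all genes. DESeq2 also called 0, and 0 had an unadjusted p under 0.05. By the labels this contrast sets P3 against P1 and P5 against P4.

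Within a library, the share of Neurog3 among the reads on the 9 genes needs no scaling between libraries. It was 22.8% and 22.4% in P4, 18.1% and 17.7% in P5, 3.81% and 5% in P1 and 0% and 0.511% in P2. In P3 it was 0% of 12 reads and 25.6% of 43 reads, too few to place. The P4 and P5 shares were each far above those of P1 and P2, and P4 was above P5 with no overlap. The P5 shares rest on 32 of 177 and 36 of 203 reads. Whether the step from P5 to P4 exceeds counting error was not tested.

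As the log2 ratio of Neurog3 to the other 8 factors, with 1 count added to each, P4 was at -1.75 and -1.79, P5 at -2.15 and -2.18, P1 at -4.35 and -3.86, and P2 at -8.72 and -7.42. P3 was at -3.70 and -1.46. The log2 ratio of Neurog3 to Neurod1 alone was positive in both P4 libraries, at 1.30 and 1.11, and strongly negative in both P2 libraries, at -6.09 and -5.06. Reads on all 9 genes made up 0.00878% and 0.0216% of the P2 libraries and 0.00973% and 0.00826% of the P4 libraries. In P5, P1 and P3 they made up 0.000311% to 0.00319%. On that unscaled measure P2 replicate 1 lay between the P4 libraries.

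**Figure D3:**
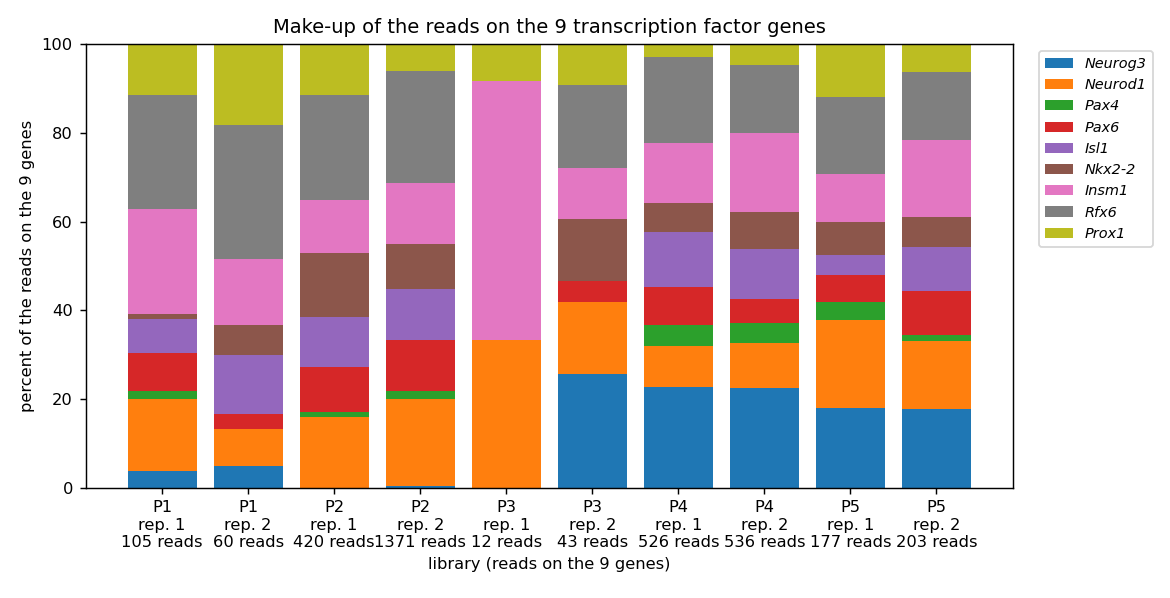
Percent of the reads on the 9 genes that fell on each gene, by library, with the number of reads below each bar. The Neurog3 share is 17.7% to 22.8% in the P4 and P5 libraries and at most 0.511% in the P2 libraries. The bars of P3 rest on 12 and 43 reads.

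Summed over the 9 factors, normalized counts were 759 and 1695 in P2, 365 and 296 in P4, 113 and 120 in P5, 99.1 and 57.0 in P1 and 33.1 and 52.7 in P3. Neurog3 alone of the 9 was higher in both P4 libraries than in both P2 libraries, beside 32.6% of all genes. Per kilobase of the longest coding transcript, the mean levels in P2 were 87.7 for Rfx6, 82.5 for Neurod1, 66.2 for Nkx2-2, 55.4 for Isl1 and 52.5 for Insm1. They were 22.9 for Prox1, 16.2 for Pax6, 15.5 for Pax4 and 2.81 for Neurog3, with Pax6 at 6.84 if all its exon bases are counted. In P4 the same measure put Neurog3 first, at 48.5, ahead of Rfx6 at 16.7, Insm1 at 16.6 and Isl1 at 15.5, which did not differ beyond the spread of the 2 libraries.

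**Figure D4:**
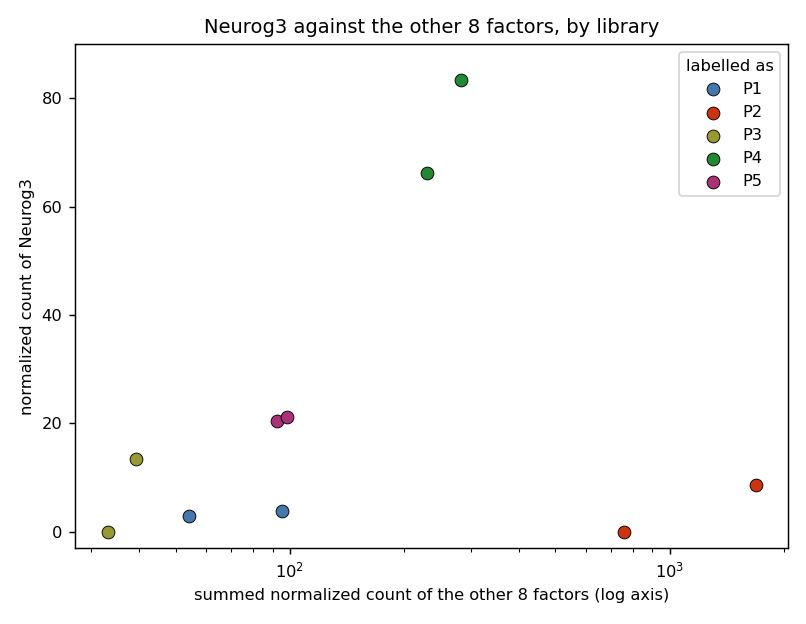
Normalized count of Neurog3 (vertical) against the summed normalized count of the other 8 factors (horizontal, log axis), 1 point per library. The P4 libraries are at 83.3 and 66.2 for Neurog3 and in the middle of the horizontal axis, and the P2 libraries are farthest right with 0 and 8.66.

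Across the 10 libraries, the 28 pairs of factors without Neurog3 had Pearson correlations of log2 CPM of 0.741 to 0.960, with a median of 0.883. The 8 pairs with Neurog3 lay between -0.142 and 0.440, with a median of 0.201. These are descriptions over 10 libraries that share the split into P2 and the rest, the sorting and the depth of each library. The genes most like the mean profile of the 9 were Celf3, an RNA-binding splicing factor (r = 0.982), Cryba2 (0.980), Rimbp2 (0.972), Abcc8, a subunit of the ATP-sensitive potassium channel (0.972) and Bace1 (0.970). Celf3 was at 230 and 403 normalized counts in P2, 78.5 and 60.6 in P4 and at most 14.1 elsewhere, which was the order of the late factors.

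Most of the factors around these 9 moved in P2 in the same comparison with the other 4 populations. Of 13 other transcription factors tied to enteroendocrine cells, 10 were higher and 0 lower at an edgeR adjusted p under 0.01. Over all genes, 16.3% were called higher and 27% in either direction. Sox4, Rfx3 and Pdx1 (named after their values were seen) did not pass. Sox4 was at 88.6 and 101 normalized counts in P2, below both P4 libraries (177 and 232) and both P5 libraries (147 and 215). Lmx1a, a factor of serotonin cells, was at 5.19 (SE 0.49) on the log2 scale, Foxa2 at 3.45 (0.38), Myt1 at 3.79 (0.47) and Foxa1 at 2.26 (0.33). Hhex, a factor of somatostatin cells, and Runx1t1 were also called, and with 0 counts in P3 they were at least 8.36-fold and 10.1-fold higher in P2 than there. Against P4, 3 of the 13 were called higher, beside 8% of all genes, with a median of 2.22 beside 0.05 over all genes.

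Of 11 genes of Notch signalling and the secretory fate, 6 were higher in P2 and 3 lower. Over all genes, 16.3% were called higher and 27% in either direction. Atoh1, which opens the secretory fate upstream of Neurog3, was higher by 3.93 (SE 0.22) on the log2 scale, Spdef by 3.99 (0.22), Gfi1 by 3.51 (0.38), and the Notch ligands Dll4 by 3.12 (0.31) and Dll1 by 1.60 (0.18). The receptors Notch2 and Notch1 fell by 3.09 (SE 0.30) and 2.23 (0.32), and the Notch target Hes1 (named after its values were seen) fell by 1.66 (0.27). The means of Notch1 and Hes1 were 52.1 and 58.6 normalized counts in P2 and 81.3 and 96.6 in P1, both below P3, P4 and P5. Against P1, 5 of the 11 were called higher, beside 13.9% of all genes, and 1 lower. Atoh1 had 858 ± 76.6 normalized counts in P2 and 93.2 ± 4.72 in P4 (SD, n = 2), the population with the most Neurog3. Against P4, 4 of the 11 were called higher, beside 8% of all genes, and 3 lower, with a median of 0.81.

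The products of the programme were higher in P2 as well. All 12 hormone and granule genes and all 9 genes of prohormone processing and secretion were called higher in P2 than in the other 4 populations, with 0 lower. Over all genes, 16.3% were called higher. Sst, which encodes somatostatin, was at 6.23 (SE 0.35), Nts, neurotensin, at 5.68 (0.98) and Gip at 5.66 (1.008) on the log2 scale. Resp18, Pcsk1n and Scg3, with 0 counts in P3, were at least 38.1-fold, 15.5-fold and 34.4-fold higher in P2 than there. Against P4, 4 of the 12 and 5 of the 9 were called higher, beside 8% of all genes, with medians of 4.13 and 4.16. The hormone genes summed to 34000 and 82760 normalized counts in P2, 4318 and 2541 in P4 and 142 to 2454 in the other 6 libraries.

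Paneth, goblet and tuft cell markers moved with the factors in P2. All 8 Paneth genes, led in level by Lyz1 and Defa24, all 7 goblet genes, led by Fcgbp and Zg16, and all 9 tuft genes tested of 10 listed, among them Trpm5, were called higher there. Over all genes, 16.3% were called higher in P2 than in the average of the other 4 populations. The tuft genes summed to 5332 and 8628 normalized counts in P2, 529 and 456 in P4, 380 and 427 in P5, and 179 to 1544 in P1 and P3. Of 7 stem cell genes, 2 were called higher against the average, beside 16.3% of all genes. These were Lgr5 (1.49 on the log2 scale) and Rgmb (1.72), while Olfm4 at -2.12 and Slc12a2 at 0.47 were not called. The mean of Lgr5 was 464 normalized counts in P2, 586 in P4, 489 in P5, 56.8 in P1 and 36.8 in P3. Against P4 and against P5, 0 of the 7 stem cell genes were called higher in P2 and 1 was called lower. Over all genes, 8% and 8.75% were called higher there. Of 7 enterocyte genes, 2 were called lower against the average, beside 27% of all genes called in either direction. These were Alpi, which fell by 3.91, and Sis, which fell by 2.99, while Vil1 at -0.82 was not called. Lgr5, Rgmb and Alpi were named after their values were seen. The stem cell genes summed to 27880 and 40350 in P4 and to 24220 and 39700 in P5, against 2964 to 16910 in the other 6 libraries.

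Lymphocyte genes, led in P1 by Gzma and Gzmb, summed to 5514 and 1641 there. In P2 they summed to 94.0 and 125, of which Ptprc alone made 84.9 and 124, and 3 of the 7 were at 0 in both libraries. None of the 7 was called against the average of the other 4 populations, beside 27% of all genes called in either direction. Between P2 and P1, 5 of the 7 were called lower in P2. Lymphatic endothelial genes (Lyve1 and Pecam1 the highest), which matter because lymphatic cells make Prox1, summed to 1.81 and 25.97 in P2 and to 5.51 to 57.0 elsewhere, with 4 of the 6 at 0 in both P2 libraries. Neuron and glia genes, among them Ret, summed to 110 and 237 in P2 and to 3.68 to 38.9 elsewhere, and 3 of the 7 were at 0 in P2. Ret was the 1 gene called of 2 tested, beside 16.3% of all genes called higher. Mesenchymal genes (Pdgfrb and Col1a1 the highest) summed to 10.8 and 16.1 in P2 and to 2.83 to 45.3 elsewhere. The part of the Paneth, goblet, tuft and neuronal markers in the levels of the 9 factors was not tested.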

How the data were processed

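RNA of 5 sorted populations of mouse crypt cells was analysed, with 2 libraries each. The authors deposited raw counts of reads per gene, made with TopHat2 2.1.0 and Bowtie on NCBIM37 and counted without strand by HTSeq 0.11.2, so that reads with several alignments were not counted. Rows that name no gene held 18.7% to 44.3% of each library's reads and were left out, as were 183 rRNA names. Of the 35006 names, 33643 were found in the annotation.

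Counts were tested with edgeR 4.0.16 (R 4.3.3; TMM scaling, filterByExpr, quasi-likelihood test, 5 population means over 10 libraries, 5 residual degrees of freedom) with Benjamini-Hochberg adjustment over 13707 genes and a threshold of 0.01. DESeq2 1.42.0 gave size factors for normalized counts and served as an alternative, beside other filters, scalings and left-out libraries. SE is the absolute log2 fold change divided by the root of F. The pipeline was tested on simulated data.

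The members and lists were chosen with earlier results of these data known. Named were the 9 members, the 13 genes with the lowest adjusted p of the other transcription factors and of the Notch and secretory genes, the 3 largest called changes of each product list, the 5 genes most like the members, and the 2 most abundant genes of each marker list, of which some are not reported here.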

Additional observations from a re-analysis of the deposited data

How the results depend on the processing

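Of the 8 factors called higher in P2 than in the other 4 populations, 5 (Neurod1, Isl1, Nkx2-2, Rfx6 and Prox1) kept their direction and stayed past the threshold under all 20 alternatives, Pax6 and Insm1 did so under 19, and Pax4 under 9. Neurog3 stayed uncalled under all 20, between -7.07 and -0.005. With 2 libraries per population, and 0 to 11 Neurog3 reads in P2 and P3, differences of Neurog3 among P1, P2 and P3 were not detectable at this depth. Leaving out 1 library at a time changed the number of factors called in every comparison with P2 and among the 6 pairs without P2. The number of all genes called changed too. For P2 against P4, DESeq2 called 6 factors beside 3192 genes, no filter 8 beside 3500, and an adjusted p under 0.05 gave 7 beside 3987. Without both P3 libraries 5 were called (2820 genes), with the fit on the 2 populations alone 5 (2675) and with library totals 1 (3159). Library totals gave 2 against P5 (2983 genes). Among the 6 pairs, DESeq2 called 5, no filter 17 and the threshold of 0.05 called 5. Over all genes, calls in P4 against P3 rose as well, from 0 to 121, 539 and 3 in these settings. The cause was not tested. Signs turned for Neurog3 in P2 against P1 without P2 replicate 2 (-4.95, in a leave-one-out range of -4.95 to 1.38), for Neurog3 in P2 against P3 without P2 replicate 1 (0.04) or P3 replicate 2 (5.49, range -6.29 to 5.49), for Pax4 in P2 against P4 without P2 replicate 2 (-0.86, range -0.86 to 1.11) or with library totals (-0.63), and for Prox1 in P5 against P4 without P5 replicate 2 (0.11, range -0.68 to 0.11). None of these differences passed the threshold. The 5 genes most like Neurog3 alone shared 0 genes with those most like the mean of all 9. The library totals, the removal of defensin genes and Lyz1, and the profile of Neurog3 alone were chosen after seeing the data.

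Replicate numbers are shared across populations, and the deviations of same-numbered libraries correlated at -0.06 to 0.55, with 9 of 10 pairs over 0.1. The pair P2 and P3 was under 0.1, which was required of every pair, so the numbers were not taken to pair the libraries. With the replicate number as a block, 7 factors were called against the average and 3 (Neurod1, Nkx2-2 and Prox1) against P4, and of 72 single fold changes 70 kept their call. With it the log2 fold change of Pax4, P2 against the average of the other 4, was 3.82 with an adjusted p of 0.0124 by edgeR and lost its call. The log2 fold change of Nkx2-2, P2 against P4, was 2.46 with an adjusted p of 0.00762 and gained one.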
